A study of Mus musculus with 12 samples.

Results

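The widest stretches of H3K27ac-marked chromatin in newborn mouse hearts were described by joining neighbouring marked regions into clusters. H3K27ac, acetylation of histone H3 at lysine 27, had been mapped by ChIP-seq in whole hearts at postnatal day 0. Regions called in all 3 wild-type (WT) hearts on the autosomes numbered 35448. Those lying within 12 kb of each other were joined into 18577 clusters, and the 500 clusters with the largest mean marked length in the WT hearts were kept. The members were thus chosen by a measured value of the WT hearts, the covered length, the base pairs inside a cluster that lie under called peaks in a heart's own list.

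The hearts belonged to 2 groups of 3. WT hearts carried the labels 1, 3 and 4. Hearts of the edKO group, labelled 1, 3 and 6, lacked both RXRa and RXRb in cardiomyocytes only (written RXRab-/- in the labels). The labels do not say that the hearts of a group came from separate litters or preparations, so p-values measure the spread between these samples only. The promoter that drives this deletion is not given in the sources used here, and other cells of a whole heart keep both receptors. In whole hearts, fewer cells of a type and less mark per cell cannot be told apart.

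H3K27ac marks active promoters and enhancers. Long runs of closely spaced marked regions, often called stretch enhancers or super-enhancers, tend to lie at genes that define a cell type. In heart muscle these include genes of the contractile apparatus and of the core cardiac transcription factors. Retinoid X receptors bind DNA as partners of PPARs, thyroid hormone, retinoic acid and LXR receptors, and several of those pairs act on genes of fatty acid use.

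The clusters also held microRNA genes, of which several have a known cardiac or vascular setting. Of 919 autosomal microRNA hairpins in the RefSeq table (GRCm38.p6, the same build as mm10), 36 (3.92%) lay in 27 of the 500 clusters. The mature sequences below show pairs that lie in the same cluster and share a seed, plus those of other microRNAs with a vascular or metabolic setting. Capitals mark the seed, bases 2 to 8. miR-208a and miR-208b lie in the Myh6 and Myh7 cluster, miR-132 and miR-212 in the Smg6 cluster, and miR-195a and miR-497a in the Bcl6b cluster. The let-7b and let-7c-2 hairpins share a cluster on chromosome 15 that overlaps no protein-coding gene, miR-23a, miR-27a and miR-24-2 share the Zswim4 cluster, and miR-378c lies in the Samd4 cluster. A cluster includes the gaps between its regions, so a hairpin inside one need not be marked. Called peaks covered no base of the miR-378c, let-7b, miR-195a and miR-497a hairpins in any heart, 6 bases of miR-132 in edKO 6 alone, and that of let-7c-2 in edKO 6 alone. The miR-23a hairpin was covered in full in all 6 hearts, and that of miR-208b in all but edKO 3. That of miR-208a was covered in full in WT 3 and edKO 6, by 11 bases in edKO 1, and not in the other hearts. The miR-212 and miR-24-2 hairpins were covered in full except in WT 4 and edKO 3, where no base was. That of miR-27a was covered in full except in WT 3 (4 of 87 bases) and edKO 3 (27 bases).
mmu-miR-208a-3p: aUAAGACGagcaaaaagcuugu
mmu-miR-208b-3p: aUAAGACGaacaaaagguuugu
mmu-miR-132-3p: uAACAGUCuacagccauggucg
mmu-miR-212-3p: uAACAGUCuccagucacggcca
mmu-miR-195a-5p: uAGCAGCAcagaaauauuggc
mmu-miR-497a-5p: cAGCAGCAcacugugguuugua
mmu-let-7b-5p: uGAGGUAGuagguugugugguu
mmu-let-7c-5p: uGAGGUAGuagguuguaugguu
mmu-miR-23a-3p: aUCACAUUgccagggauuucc
mmu-miR-27a-3p: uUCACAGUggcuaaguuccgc
mmu-miR-24-3p: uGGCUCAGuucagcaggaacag
mmu-miR-378c: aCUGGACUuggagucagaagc

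Gene starts inside the clusters were mostly marked in both genotypes. The window of a start ran from 250 bases before it to 50 after. A start counted as marked in a heart if called peaks covered at least 1 base of this window. Of 1070 RefSeq starts of 836 genes inside the 500 clusters, 81.1% were marked in all 6 hearts, against 38.3% of all 31396 autosomal starts. The clusters were chosen for called regions in WT, so a higher share than among all starts follows from the rule. The 3 promoters shown were chosen because their clusters had separated genotypes while the promoter itself was covered in every heart. They belong to Fabp3, which encodes the fatty acid binding protein of heart muscle, Meis2, a homeobox transcription factor gene, and Htra1, a secreted serine protease gene. Each is the 250 bases before the start, 5′ to 3′ on the gene's strand, with matches to the searched motifs in capitals.
Fabp3, chr4:130308488-130308737, + strand: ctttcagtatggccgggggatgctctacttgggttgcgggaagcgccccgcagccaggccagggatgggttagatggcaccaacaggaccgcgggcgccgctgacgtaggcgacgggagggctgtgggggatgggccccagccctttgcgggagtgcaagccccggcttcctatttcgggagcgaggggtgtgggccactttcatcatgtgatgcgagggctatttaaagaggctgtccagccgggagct
Meis2, chr2:116064620-116064869, - strand: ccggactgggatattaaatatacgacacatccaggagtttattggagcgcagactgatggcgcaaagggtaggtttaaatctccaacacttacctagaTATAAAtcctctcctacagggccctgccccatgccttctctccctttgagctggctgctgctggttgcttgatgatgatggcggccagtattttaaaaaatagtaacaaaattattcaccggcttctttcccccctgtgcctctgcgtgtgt
Htra1, chr7:130935953-130936202, + strand: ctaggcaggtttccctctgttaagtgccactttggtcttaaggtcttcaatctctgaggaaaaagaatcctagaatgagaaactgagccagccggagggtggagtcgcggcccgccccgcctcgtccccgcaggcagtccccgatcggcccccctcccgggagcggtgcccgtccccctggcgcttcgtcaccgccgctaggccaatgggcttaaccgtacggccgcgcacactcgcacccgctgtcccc
The motifs searched on both strands were AGGTCA (a nuclear receptor half-site), its direct repeat with 1 base between, AGATAA and TATAAA. The half-site occurred in the 250 bases before 11.8% of the 1070 starts in the clusters and 14.1% of all autosomal starts. It occurred before 15.7% of the 121 starts in clusters that were lower in every edKO heart. The direct repeat, which contains the half-site, was found before 0 of the 1070 starts and before 0.0350% of all starts. TATAAA occurred before 8.13% of the starts in the clusters and 12.4% of all, and AGATAA before 7.20% and 9.94%. TATAAA was the only match in the 3 printed sequences, in that of Meis2.

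The lists of the 6 hearts differed in length and in the width of their regions. Called peaks covered 58.1 to 67.1 Mb of the autosomes in the WT hearts, against 65.3, 47.0 and 61.6 Mb in edKO 1, 3 and 6. The median region was 1011 bp wide in edKO 1 and 532 bp in WT 4. Reads per heart were not at hand, so a shorter covered length says that fewer bases passed the peak caller, not that the mark was absent. edKO 3, with the shortest covered length, was the lowest of the 6 hearts in 449 of the 500 clusters (89.8%).

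The 500 clusters held 4765 of the shared regions. A cluster held a median of 8 regions (2 to 43) over a median span of 48978 bp, of which a median of 43.8% was covered in WT. Mean WT covered length ran from 14566 to 127588 bp, with a median of 20113 bp. Covered length in the clusters was 11.6 to 12.1 Mb in the WT hearts and 11.8, 8.96 and 11.6 Mb in edKO 1, 3 and 6. These lengths were 18.3%, 17.9% and 19.9% of the whole list in WT, and 18.1%, 19.0% and 18.8% in edKO. Shares of the list overlapped between the genotypes. The density of the clusters varied: the most open, on chromosome 12 with no protein-coding gene, was covered over 21.1% of its span, and the densest, on chromosome 2, over 96.1%. The Txnip and Polr3gl cluster was covered over 93.8% with only 2 regions.

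**Figure D1:**
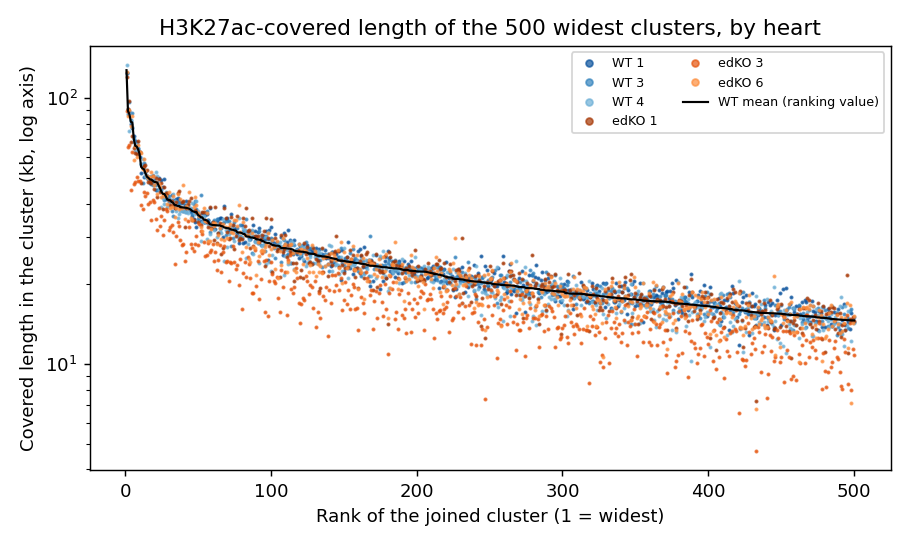
Covered length (kb, log axis) of each of the 500 clusters against its rank, with 1 point per heart and the WT mean that set the rank as a line. The WT mean drops from 127588 bp at rank 1 to 14566 bp at rank 500, and edKO 3 lies lowest in 449 clusters.

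The widest clusters are described in order of rank. Rank 1, at Tns1, which encodes the focal adhesion protein tensin 1, and Rufy4 (chromosome 1, 73905583 to 74125399), had 43 regions covering 124716, 124871 and 133176 bp in WT 1, 3 and 4, against 120739, 89395 and 125897 bp in edKO 1, 3 and 6. Rank 3 spanned Col4a1 and Col4a2, the paired genes of basement membrane collagen IV, at 87073 ± 10954 bp in WT versus 84850 ± 16399 bp for edKO. Values written with ± are the mean and SD of the 3 hearts of a genotype (n = 3), here and below. In both clusters the genotypes overlapped. Rank 4 lay at Msi2, which encodes an RNA-binding protein, and was the longest, with 43 regions over 284748 bp. It had 79948, 82693 and 81821 bp in WT versus 68708, 45185 and 78314 bp for edKO, so every edKO heart was below every WT heart.

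Mical2 (81072 ± 6030 bp in WT) encodes an actin-oxidising enzyme. Lrrfip1 (70322 ± 1973 bp in WT, 57001 ± 8863 bp in edKO) was the only other of the 12 with every edKO heart lower. Rbpms (66195 ± 2684 bp in WT) and Rbm20 (65804 ± 3567 bp in WT) encode RNA-binding splicing regulators, the latter of titin. The Myh6 and Myh7 cluster (chromosome 14, 54912232 to 55016285) held both cardiac myosin heavy chain genes and 7 protein-coding genes in all. It had 64527, 64814 and 63115 bp in WT versus 69180, 48657 and 66483 bp for edKO, with the edKO hearts on both sides of the WT hearts. The remaining 3 lay at Igf2r, the receptor that clears IGF2 (61603 ± 1151 bp in WT), at the mitochondrial NAD carrier gene Slc25a51 with the adaptor gene Shb (55183 ± 2452 bp), and at Pitpnm2 (54396 ± 5832 bp).

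Most clusters lay at 1 gene. The body of a protein-coding gene overlapped all but 31 clusters, with exactly 1 in 291 clusters and 5 or more in 31. In all, 859 of 20665 autosomal protein-coding genes (4.16%) overlapped a cluster. The most gene-rich cluster, rank 297 on chromosome 18, overlapped 25 genes, nearly all of the gamma-protocadherin array, whose gene bodies overlap one another. Rank 97 on chromosome 13 overlapped 15 genes, all named as histone genes.

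Genes of the contractile apparatus and its control were the most often included of the lists examined. Of 43 sarcomere and Z-disc genes, 22 (51.2%) overlapped a cluster, against 4.16% of all genes. They included Tnnt2 with Tnni1 at rank 24 (45824 ± 252 bp in WT, 41183 ± 7175 bp in edKO), Actn2 at rank 26 (43627 ± 2206 and 37432 ± 6498 bp), Ldb3 at rank 34 and Fhl2 at rank 42. Of 25 cardiac transcription factor genes, 11 (44.0%) overlapped one, led by Gata4 at rank 17 (49497 ± 1284 and 46739 ± 5265 bp), Myocd at rank 27, Gata6 at rank 28, Nkx2-5 at rank 31 and Hand2 at rank 53. Of 16 calcium handling genes, 6 (37.5%) did: Atp2a2, the calcium pump of the sarcoplasmic reticulum, at rank 22, Jph2 at rank 44, the calcium channel gene Cacna1c at rank 111, Pln at rank 135, Ryr2 at rank 151 and Asph at rank 417. Natriuretic peptide and stress genes gave 3 of 7 (Rcan1, and Nppa and Nppb in 1 cluster), intercalated disc genes 3 of 10 (Cdh2, Jup and Dsp) and conduction and ion channel genes 3 of 21 (Kcnq1, Kcnh2 and Popdc2). Of 8 cardiomyocyte markers, 7 overlapped a cluster. Ttn did not.

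Of the other cell types of the heart, only endothelial genes were common. Of 24 endothelial genes, 10 (41.7%) overlapped a cluster, among them Col4a1 and Col4a2 at rank 3, Notch1 and Egfl7 at rank 13, and Eng at rank 48. A cluster at rank 213 overlapped both Nos3, the endothelial nitric oxide synthase gene, and Kcnh2, a cardiac potassium channel gene. The fibroblast and matrix list gave 1 of 20 (Sparc), and the smooth muscle and pericyte, epicardial, leukocyte, erythroid, and neural and Schwann cell lists 0 of 11, 9, 11, 9 and 10. Of 10 liver genes, listed as a tissue not sampled, Apoa2 overlapped a cluster that also overlaps 8 other genes.

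Fewer genes of the metabolic lists were included. The fatty acid uptake and lipid storage list gave 5 of 23 (Pnpla2, Fabp3, Plin3, Cidea and Cd36) and fatty acid oxidation 1 of 23 (Acacb, whose product makes the malonyl-CoA that limits fatty acid entry into mitochondria). Nuclear receptors and cofactors gave 7 of 29, among them Thra with Nr1d1 at rank 19, Ppargc1a at rank 37, Ppargc1b at rank 41, Rara at rank 59 and Nr4a1 at rank 334. Glucose use gave 2 of 20 (Hk1 and Hk2), the respiratory chain and tricarboxylic acid cycle 2 of 25 (Idh2 among them), the cell cycle 1 of 15 (Ccnd3) and growth signalling 5 of 23 (Erbb2, Adrb1, Smad7, Smad6 and Igf1r). A long gene body overlaps a cluster more easily. By gene start, where RefSeq gives one, 18 of 36 sarcomere and Z-disc genes, 8 of 14 cardiac transcription factor genes and 5 of 13 endothelial genes lay inside a cluster, against 3.32% of all genes.

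**Figure D2:**
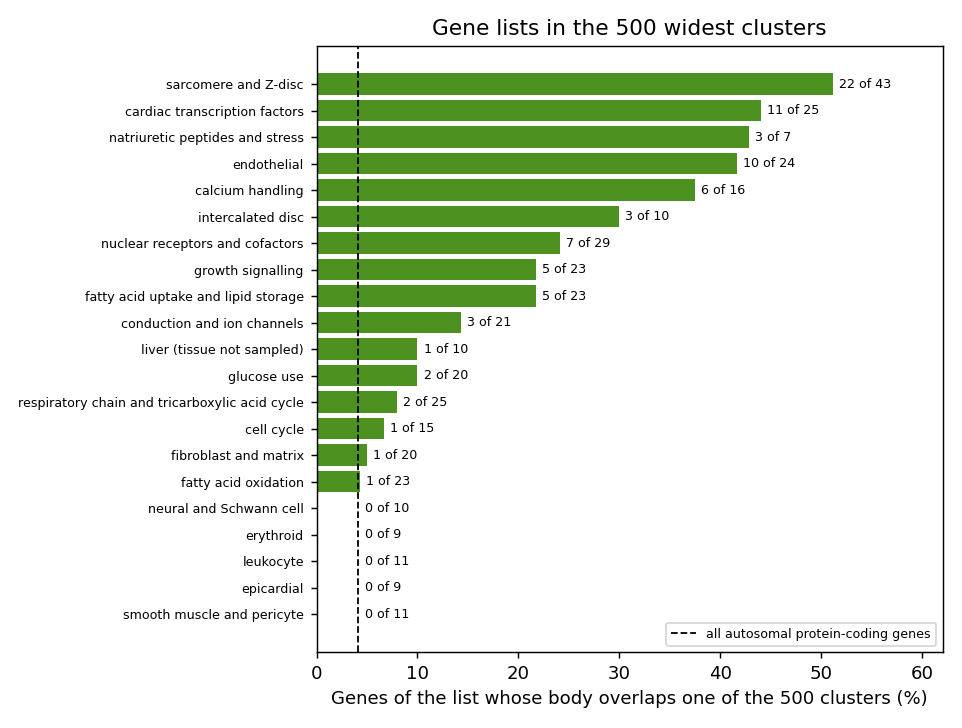
Percentage of each list's autosomal genes whose body overlaps one of the 500 clusters, with the counts beside the bars and a dashed line at the 4.16% of all autosomal protein-coding genes. Sarcomere and Z-disc genes reach 51.2%, and 5 lists of other cell types are at 0.

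Most of the clusters had a lower mean covered length in edKO, and edKO 3, the lowest heart in 449 of them, enters each of those means. The edKO to WT ratio of means was below 1 in 457 of the 500, with a median of 0.92 (0.40 to 1.23). With each heart scaled to the same total covered length, it was below 1 in 227, with a median of 1.01. Every edKO heart lay below every WT heart in 72 clusters and above in 1. Among all 18577 clusters, 11.4% were lower in this way and 0.328% higher, and the 500 members stood at 14.4% and 0.2%. The ranking used the WT values, which favours lower edKO values, so these counts are descriptions without a test. After scaling, 32 members were lower and 21 higher in every edKO heart, against 8.52% and 5.78% of all clusters, and 26 of the 72 were among the 32. Built in mirror image, from regions called in all 3 edKO hearts and ranked by the edKO mean, the 500 widest clusters gave 36 lower and 1 higher. Leaving out edKO 3 gave 72 lower and 38 higher, and 53 and 26 after scaling. In the 449 clusters where edKO 3 was the lowest heart, leaving it out cannot change whether a cluster counts as lower. The unchanged 72 was thus nearly fixed in advance. For the mirrored rule and without edKO 3 no share over all clusters is at hand, so those counts have no background beside them. The main and the mirrored rule chose similar places: 430 of the 500 members (86.0%) overlapped a mirrored cluster, and 431 of the 500 mirrored clusters (86.2%) overlapped a member.

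**Figure D3:**
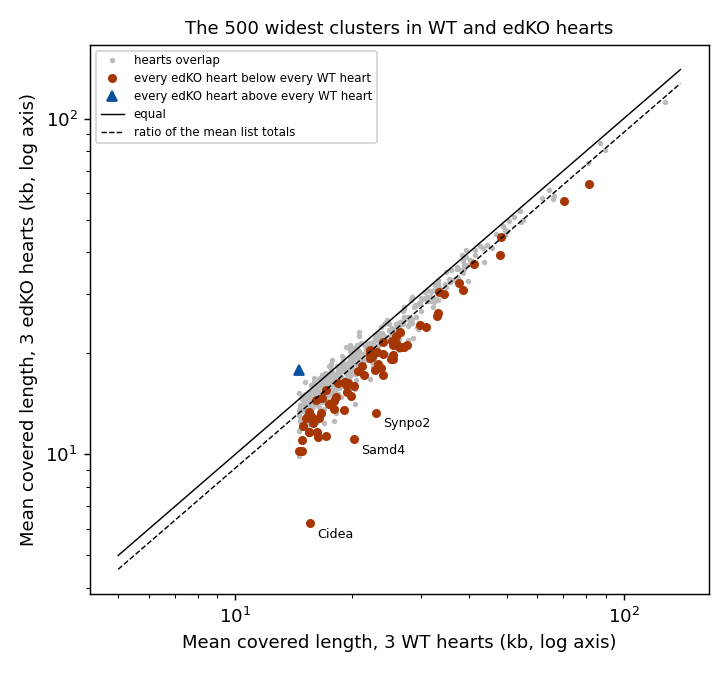
Mean covered length in the 3 edKO hearts against that in the 3 WT hearts (kb, both axes log) for the 500 clusters, with lines for equal length and for the ratio of the mean list totals. The 72 clusters with every edKO heart lower include Cidea, Samd4 and Synpo2, which lie farthest below both lines, and Htra1 is the 1 triangle above them.

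The lowest ratio was at Impa2, an inositol monophosphatase gene, and Cidea, which encodes a lipid droplet protein (rank 433, chromosome 18, 67307803 to 67344162). This cluster had 14914, 13975 and 17970 bp in WT 1, 3 and 4, against 7247, 4696 and 6748 bp in edKO 1, 3 and 6, a ratio of 0.40. All edKO hearts were well below all WT hearts. The region at 67310367 to 67313528, inside Impa2, had 2954, 2686 and 3005 bp in WT versus 898, 342 and 385 bp for edKO. The widest, at 67325790 to 67332356 between the 2 genes, had 5819, 5550 and 6151 bp in WT versus 3193, 1966 and 3198 bp for edKO. A region at 67307803 to 67309258, inside Impa2, was called in no edKO heart, so the shorter length was spread over the cluster.

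**Figure D4:**
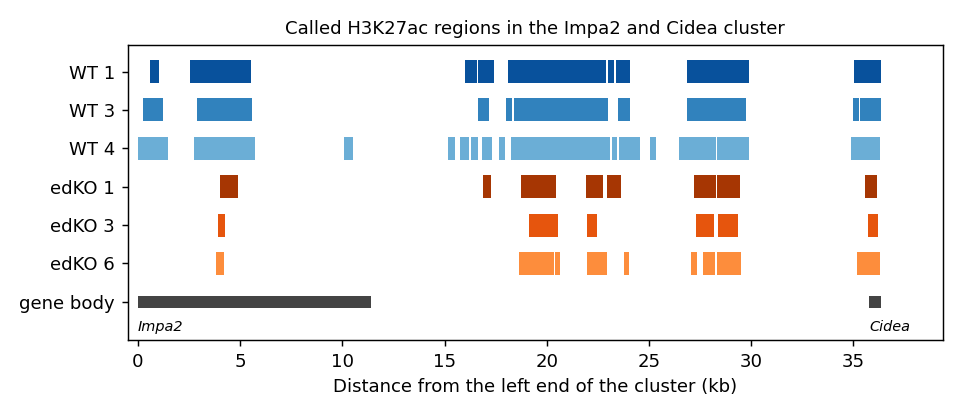
Called H3K27ac regions of each heart (bars, 1 row per heart) along the Impa2 and Cidea cluster, by distance in kb from its left end, with the gene bodies below. The bars of each edKO row cover less in total than those of each WT row, 4696 to 7247 bp against 13975 to 17970 bp. The leftmost bars of the WT rows have no counterpart in edKO.

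The next 2 clusters each lay at 1 gene. At Samd4, an RNA-binding protein gene (rank 247, chromosome 14, 46923548 to 47013540), covered length was 23387, 18825 and 18420 bp in WT versus 12532, 7350 and 13429 bp for edKO. A region inside Samd4 (46979751 to 46982961) had 3132, 2643 and 1575 bp in WT versus 0, 0 and 519 bp for edKO. At Synpo2, an actin-bundling Z-disc protein gene (rank 180, chromosome 3, 123070247 to 123162672), it was 26487, 23924 and 18756 bp in WT versus 14076, 10853 and 14935 bp for edKO. Several of its 15 regions were short in edKO, such as 123080582 to 123082690, at 1930, 2036 and 2091 bp in WT versus 0, 356 and 595 bp for edKO. In both clusters every WT heart was above every edKO heart, and WT 1 was the highest.

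Adhesion and fatty acid genes were among the following clusters. At Fermt2, which encodes the integrin activator kindlin-2 (rank 372), covered length was 18727, 15463 and 17143 bp in WT versus 13419, 9220 and 11407 bp for edKO. A region inside Fermt2 (chromosome 14, 45509644 to 45513312) had 3127, 3375 and 2775 bp in WT versus 613, 307 and 804 bp for edKO, while the region over its start (45527935 to 45531786) had 3852, 3366 and 3582 bp against 3852, 2978 and 3625 bp. At Fabp3 (rank 284, chromosome 4, 130296924 to 130325132) the values were 18548, 18955 and 19841 bp in WT versus 14093, 11603 and 15109 bp for edKO. The difference there was mostly in the region at 130296924 to 130301347, ahead of the Fabp3 start at 130308738, with 3938, 3278 and 3903 bp in WT versus 911, 325 and 1077 bp for edKO. The region that holds the printed Fabp3 promoter (130306333 to 130315097) had 8082, 8276 and 8649 bp in WT versus 7440, 6768 and 7911 bp for edKO. The cluster at Acacb (rank 478, chromosome 5) also overlaps Alkbh2 and Ung. Its covered length was 13768, 14513 and 16397 bp in WT versus 12401, 8033 and 10246 bp for edKO. A region inside Ung (114133087 to 114135683) had 2155, 2301 and 2338 bp in WT versus 1765, 380 and 930 bp for edKO. The next region (114137293 to 114140759), which overlaps Ung, had 2581, 2792 and 3350 bp against 1640, 1644 and 2028 bp. The region over the left end of the Acacb body (114144844 to 114149268) had 3713, 3814 and 3967 bp against 3592, 2828 and 2560 bp. In all 3 clusters every edKO heart was below every WT heart, and edKO 3 was the lowest.

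The other clusters among the 12 lowest had ratios between 0.69 and 0.75. They lay at Lifr, a cytokine receptor gene, with Egflam (16353 ± 513 bp in WT, 11244 ± 1678 bp in edKO), Actn1, the alpha-actinin of non-muscle cells (14595 ± 1144 and 10269 ± 1671 bp), Slf2 (16196 ± 1245 and 11697 ± 2547 bp) and Slc12a7, a potassium-chloride cotransporter gene (14885 ± 1117 and 11001 ± 1535 bp). Adrb1, the main cardiac beta-adrenergic receptor gene (rank 160, chromosome 19), had 26531, 22387 and 22969 bp in WT versus 19288, 13405 and 19077 bp for edKO. The region over Adrb1 (56721158 to 56730651) was covered by 9494, 9021 and 9089 bp in WT versus 9309, 8576 and 9301 bp for edKO. A region beyond the gene (56746483 to 56748367) had 1717, 1004 and 1548 bp in WT versus 0, 0 and 236 bp for edKO. At Meis2 (rank 258, chromosome 2) the cluster had 20061, 21525 and 17872 bp in WT versus 16763, 14034 and 13874 bp for edKO. Its widest region (116060004 to 116065852), which holds the printed promoter, had 5796 to 5834 bp in WT and 5685 to 5706 bp in edKO.

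Htra1 (rank 495, chromosome 7, 130922504 to 130979461) was the 1 member higher in every edKO heart, with 14772, 15040 and 13978 bp in WT versus 21516, 15265 and 16880 bp for edKO. edKO 3 exceeded the highest WT heart only slightly there, and edKO 1 by far. The printed Htra1 promoter was covered over its whole window in all 6 hearts. In each shared region of this cluster the genotypes overlapped. The widest (130964101 to 130967942) had 3610, 3152 and 2917 bp in WT versus 3418, 3342 and 3397 bp for edKO. The covered length of a cluster also counts called bases in the gaps between its shared regions. After scaling, the 2 next highest ratios among the 21 higher members were at Nr4a1, an orphan nuclear receptor gene, with Grasp (1.18), and at the gene-free let-7b and let-7c-2 cluster (1.18). Both were chosen after their values were seen. Unscaled, their hearts overlapped, at 17873, 19279 and 16146 bp in WT versus 21090, 15821 and 20342 bp for edKO for Nr4a1, and 18305, 21503 and 19319 bp against 22438, 17222 and 24021 bp for the let-7 cluster.

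**Figure D5:**
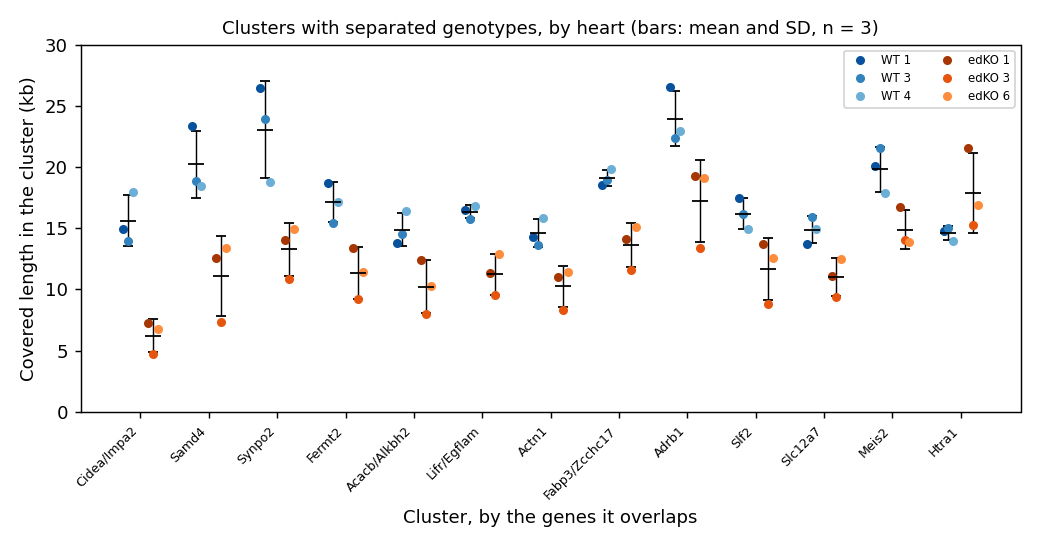
Covered length (kb) in each heart for the 12 clusters with the lowest edKO to WT ratio among those lower in every edKO heart, and for Htra1, with the mean and SD of 3 hearts per genotype. The edKO points lie below the WT points in the first 12 clusters and above them at Htra1.

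List members among the 72 were spread over several groups. Of the 12 clusters with cardiac transcription factor genes, 4 were lower in every edKO heart: Hopx (31073 ± 1979 bp in WT, 23974 ± 7060 bp in edKO), Nkx2-5, Mef2d and Meis2. After scaling only Meis2 was. Of 21 clusters with sarcomere and Z-disc genes, 2 were (Svil and one of 2 at Palld, of which Svil was after scaling), and of 6 with calcium handling genes, 2 before scaling and 0 after it (Atp2a2 at 48177 ± 2925 and 39358 ± 6556 bp, and Cacna1c at 27190 ± 1556 and 20875 ± 5055 bp). None of the 9 clusters with endothelial genes was. Against the 14.4% of all 500 clusters, these counts are too small to set one list apart from another. Synpo2, a Z-disc protein gene with a separated cluster, is not on the sarcomere and Z-disc list, so that count leaves it out. Fabp3 and Cidea were the 2 separated clusters among 6 of the lipid uptake and storage list, and both stayed lower after scaling. The Plin3 cluster of this list (rank 292), which also overlaps Fem1a, Ticam1, Arrdc5 and Uhrf1, went the other way after scaling. It was then higher in every edKO heart (ratio 1.15), while unscaled its hearts overlapped. Cd36, the fatty acid transporter gene, had 2 clusters, and at rank 498 its values were 15514, 16037 and 12163 bp in WT versus 14582, 7958 and 7090 bp for edKO, so the genotypes overlapped through edKO 1 and WT 4. Ppargc1b, a coactivator of nuclear receptors, had 38682 ± 1302 and 30803 ± 5585 bp and was lower in every edKO heart also after scaling, while Ppargc1a had 39304 ± 2443 and 38629 ± 5939 bp and was not lower in every edKO heart.

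Shared regions were split by distance from gene starts. They had been chosen as called in all 3 WT lists, so the values are a description with no test. Of 929 shared regions within 2 kb of a RefSeq gene start, 860 (92.6%) were called in all 3 edKO hearts, and of 3836 farther away, 3022 (78.8%). Summed length at starts was 3420, 3405 and 3250 kb in WT 1, 3 and 4 and 3355, 2848 and 3270 kb in edKO 1, 3 and 6. Away from starts it was 8239, 8115 and 7596 kb in WT 1, 3 and 4 and 7634, 5929 and 7369 kb in edKO 1, 3 and 6. The genotypes overlapped in both classes, edKO 3 was the lowest in both, and the ratios of means were 0.94 at starts and 0.87 away from them. In the other clusters the shares were 93.3% and 74.5% and the ratios 0.94 and 0.84. Over all shared regions, 81.5% of those in the 500 clusters and 80.8% of the others were called in all 3 edKO hearts, and 1.59% and 2.46% in none. The median region was 1989 bp wide in the clusters and 1509 bp elsewhere, and whether that width bears on these shares was not tested.

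The peaks with the highest fold enrichment, the authors' own value for each peak, were not concentrated in the clusters. Of the 1000 highest peak entries in each list, 12.5% ± 1.01 lay in the clusters in WT and 14.3% ± 2.41 in edKO (mean ± SD, n = 3 each). Of all entries in each list, 17.3% to 19.6% lay there.

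The genotypes were tested on clusters built without regard to genotype, from regions called in at least 3 of the 6 hearts. Of 17454 such clusters, 493 held a member. limma, fitted to log2 of covered length plus 200 bp over all 17454, called 5 clusters (0.0286%) lower in edKO and 0 higher (0%) at an adjusted p of 0.05. None of the 5 held a member. At an unadjusted p under 0.05, limma gave 34 lower and 1 higher among the 493 (6.90% lower), against 831 lower (4.76%) and 254 higher (1.46%) among all. The 493 were picked through WT covered length, which favours lower edKO values, so the 2 shares are a description. Without edKO 3 the shares of lower clusters were 2.23% of those holding a member and 3.95% of all, and without edKO 1 they were 4.44% and 5.58%, the opposite order. The order was kept without WT 1 (3.93% and 3.01%), WT 3 (6.68% and 3.34%), WT 4 (4.12% and 3.65%) or edKO 6 (9.68% and 5.95%). The median log2 difference (edKO minus WT) was -0.04 for the 493 and 0.04 for all clusters. The smallest adjusted p among the 493 was 0.0948, at the Impa2 and Cidea cluster (log2 difference -1.22, SE 0.17). Next came Synpo2 (-0.75, SE 0.12, limma adjusted p = 0.131) and Samd4 (-0.80, SE 0.17, limma adjusted p = 0.265). For Htra1 the difference was 0.36 (SE 0.09, limma adjusted p = 0.43). The called clusters were shorter, with mean covered lengths from 1803 to 7287 bp. They lay within 10 kb of the Acot1, Acot2 and Acot4 thioesterase genes with Heatr4, Wnt9a, Nars2 and Ces1e, and at a place on chromosome 4 with no protein-coding gene as near.

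Ranked by the mean of all 6 hearts, the 500 widest of these genotype-blind clusters held 20.0% ± 1.01 of the covered length in WT hearts and 20.2% ± 0.44 in edKO hearts (n = 3 each). The difference of 0.195 percentage points was within the spread between hearts (exact two-sided permutation p = 0.8, with 0.1 the smallest that 3 against 3 allow).

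The rank limit of 500 falls in a dense part of the ranking. Just inside it were Cd36 (rank 498, mean 14571 bp in WT), Plcd3 with Acbd4 and Hexim1 (14569 bp), and Zeb2 (14566 bp). Just outside were Gpr107 (14560 bp), Tgfb3 with Ift43 (14523 bp) and Ntmt1 with 1700001O22Rik (14522 bp).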

How the data were processed

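H3K27ac ChIP-seq lists of 6 hearts were used. Each of the 6 input samples is labelled with the list of its heart. According to the submitters' processing notes, the tools were MACS2, BWA, SAMtools and cutadapt (versions not given), with builds mm10 and GRCm38. The authors deposited 1 narrowPeak list per heart, not pooled. In the deposited lists the fold enrichment is a ratio to background, p and q are −log10 values, and an integer score repeats q. Positions are in mm10. Read depth is unknown, so no counting interval is given.

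Entries of a heart were merged into regions. A WT region was shared if the merged union held a region of all 3 lists. Gene bodies and promoters came from RefSeq GRCm38.p6, which gives no exons, and 16457 of 20665 autosomal protein-coding genes had a start. Of 384 list genes in 21 lists, 383 were matched.

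Genotype-blind clusters with a mean of at least 500 bp were compared between genotypes by limma (3.58.1, under R 4.3.3; trend, robust) on log2(bp + 200), centred per heart on clusters covered in all 6. No covariate entered the model, and p-values were adjusted by Benjamini-Hochberg. The pseudocount understates changes of short clusters. The script was tested on simulated data with 17454 clusters. The fit called 29% of 100 clusters with a true log2 difference of -1 and 69% of 100 with -2. It also called 6 unchanged clusters. The changed clusters were drawn at random from all 17454, so these shares are not those for clusters holding a member. Smaller differences were not simulated. A cluster that was not called may therefore still differ between the genotypes. Other steps ran in Python 3.11.15 (pandas 2.3.3, scipy 1.17.1, numpy 2.4.6; figures by matplotlib 3.10.9).

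The members, lists and tests were chosen with earlier results of these data known. The named clusters are the 12 widest, the 12 lowest ratios among those lower in every edKO heart, those higher (up to 6), 3 on each side of the rank limit, the richest in genes or regions, and list genes. Single regions inside clusters were chosen after their values were seen. A few clusters and genes are not reported here.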

Additional observations from a re-analysis of the deposited data

How the results depend on the processing

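The count of members lower in every edKO heart (72) stayed within 1.5 times for joining within 5 or 20 kb, bases called in all 3 WT lists, stricter lists (−log10 q of at least 5), gene starts left out and genotype-blind clusters. It was 39 at equal list length, 32 scaled to equal list total and 36 under the mirrored rule. Shares over all clusters are at hand only for the main counts and for those scaled to equal list total. The other counts of lower and higher members given here have no background beside them. Settings chosen after seeing the data gave 9 (mirrored and scaled), 20 (genotype-blind and scaled) and 53 (scaled, without edKO 3). Leaving out a heart gave 72 to 160, the highest without edKO 1, and 140 without WT 4 and 126 without edKO 6. Fewer hearts must be separated there. The count of higher members (1) was 0 joined within 5 or 20 kb, for bases called in all 3 WT lists, for stricter lists and with gene starts left out, and 21 scaled to equal list total. It was 51 mirrored and scaled, 34 genotype-blind and scaled, and 26 scaled without edKO 3, all 3 chosen after seeing the data. With 1 heart left out it lay between 0 and 38, the highest without edKO 3.

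The limma count of lower genotype-blind clusters (5) was 37 with a pseudocount of 1000 bp, 19 with no filter on low covered length, 10 with a mean of at least 2000 bp, 2 without centring, 27 with quantile normalization, 3 joined within 20 kb, 9 from regions called in all 6 hearts, 1 with stricter lists, 2 at equal list length and 2 with a covariate for a called peak at Xist. It was 0 with a replicate block on the label numbers, of which both genotypes share 1 and 3. Their deviations correlated at 0.13 and 0.14 over the 500 clusters, within the range of -0.41 to 0.37 between WT and edKO hearts with unlike numbers. Only 2 pairs exist, and the numbers were not taken to pair the hearts. With 1 heart left out the count lay between 0 and 24: 24 without edKO 6 and 0 without any one of the other 5. No setting called a cluster higher. Clusters holding a member (0 called) gave 1 with quantile normalization, the Impa2 and Cidea cluster, and 1 from regions called in all 6 hearts, a region inside Impa2. In both the cause was not tested.

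The difference in the share of covered length in the widest genotype-blind clusters was -0.148 percentage points at equal list length and ran from -0.146 (without WT 3) to 0.779 (without WT 4) with a heart left out. The share of genes overlapping a cluster (4.16%) was 3.32% by gene start, 2.89% joined within 5 kb, 6.47% joined within 20 kb, 2.18% for the 250 widest clusters and 7.76% for the 1000 widest.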
